A study of Rattus norvegicus with 48 samples.

Results

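The miR-130/301 family was taken as rno-miR-130a-3p, rno-miR-130b-3p, rno-miR-301a-3p and rno-miR-301b-3p, chosen by name. They are 4 of the 764 mature rat miRNAs listed in the count file, of which 664 had at least 1 read. The livers came from male Sprague-Dawley rats given thioacetamide (TAA), a compound that liver cells convert into toxic metabolites. Rats were dosed daily at 4.5, 15 or 45 mg/kg, called the low, middle and high dose, for 3 days (3-d), 7 days (7-d), 14 days (14-d) or 28 days (28-d). Controls of each time point received only vehicle, and the labels name no strain difference or genetic change between the groups. Each of the 16 groups had 3 rats with 1 miRNA-seq library each, so n = 3 for every group mean ± SD below. The libraries were made from pieces of whole liver, so fewer cells of a type and less RNA per cell cannot be told apart.

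A miRNA is a short RNA that guides the silencing machinery to messenger RNAs, and its seed, the bases near the 5′ end, does most of the pairing. Members of a seed family can therefore bind the same target sites. The miR-130/301 family is known for acting on peroxisome proliferator-activated receptor gamma and for its study in vascular remodelling, tissue fibrosis and tumours, the liver among them. The mature sequences below are shown because the seed they share defines the family and the rest tells the members apart. They were taken from RefSeq (build GRCr8), where 3 of the 4 members matched by name, with bases 2 to 8 in capitals.

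rno-miR-130a-3p: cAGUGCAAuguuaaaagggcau

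rno-miR-130b-3p: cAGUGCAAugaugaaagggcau

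rno-miR-301b-3p: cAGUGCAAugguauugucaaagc

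The seed AGUGCAA was identical in these 3 miRNAs, and no other entry among the 724 mature miRNAs of the RefSeq table had it. rno-miR-130a-3p and rno-miR-130b-3p were identical at 20 of 22 bases, and the first difference lay at position 11 from the 5′ end. rno-miR-301b-3p matched rno-miR-130a-3p at 13 of the first 22 bases and rno-miR-130b-3p at 12. The mismatch setting used in counting is not given in the sources used here. Some reads of rno-miR-130b-3p could therefore belong to the more often read rno-miR-130a-3p, and their share was not measured.

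The members lie at 3 places of the genome (GRCr8). rno-miR-130a-3p is at chr3:90229240-90229261 on the minus strand, in a hairpin that no other annotated gene covers. The Mir301a hairpin is at chr10:72422599-72422698 on the plus strand, inside the annotated spans of Prr11 and Ska2. rno-miR-301b-3p at chr11:97384077-97384099 and rno-miR-130b-3p at chr11:97384430-97384451 are on the plus strand inside the span of 2610318N02Rikl. Their hairpins are 269 bases apart. Whether these hairpins are exonic or intronic was not analysed here.

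Library totals ran from 293331 to 14906217 counts with a median of 10237542. The lowest total belonged to control 3-d replicate 1, and the next lowest was 4829217. In control 3-d replicate 1 the normalized level of the hepatocyte miRNAs miR-122, miR-192, miR-194 and miR-148a summed to 124790 RPM, against 254830 to 454920 in the other 47 libraries. The red blood cell miRNAs (miR-451, miR-144, miR-486 and miR-363) summed to 81110 RPM in that library and to at most 9263.9 RPM elsewhere. The part of this library in the results was tested by leaving it out, and fits and correlations that use it are given with and without it. Its family counts were 107 for rno-miR-130a-3p (365 RPM, 95% Wilson interval 302 to 441), 18 for rno-miR-301a-3p (61.4 RPM, 38.8 to 97.0), 4 for rno-miR-130b-3p (13.6 RPM, 5.30 to 35.1) and 0 for rno-miR-301b-3p, for which 3 counts, the limit that a count of 0 allows, would be 10.2 RPM. Counting error alone is behind these limits.

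By reads, rno-miR-130a-3p was the leading member of the family in liver. The order rno-miR-130a-3p, rno-miR-301a-3p, rno-miR-130b-3p, rno-miR-301b-3p held in 48 of 48 libraries. In RPM, reads per 1000000 of the library total, rno-miR-130a-3p ran from 365 to 933 with a median of 609. rno-miR-301a-3p, the member of the Ska2 locus, ran from 61.4 to 235 with a median of 167. rno-miR-130b-3p ran from 5.87 to 30.9 with a median of 11.7. rno-miR-301b-3p ran from 0 to 1.98 with a median of 0.933. The members ranked 63, 110, 231 and 341 by mean RPM among the 664 miRNAs with reads. Of all family reads, rno-miR-130a-3p held 77.5%, rno-miR-301a-3p 20.9%, rno-miR-130b-3p 1.58% and rno-miR-301b-3p 0.114%. These are shares of reads, and mature miRNAs differ little in length, so no length correction was made. Whether they equal shares of molecules was not tested.

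The neighbouring members of the Mir301b and Mir130b locus were read at different levels. rno-miR-301b-3p had 437 reads over all libraries against 6072 for rno-miR-130b-3p. 5 libraries had no more than 3 reads of rno-miR-301b-3p and no library reached 5 RPM. The other 3 members passed the filter on low counts, which kept the 301 miRNAs that reached 5 RPM in 3 or more libraries for testing, and rno-miR-301b-3p did not. The opposite strands of the hairpins were also rare: rno-miR-130a-5p, rno-miR-130b-5p and rno-miR-301a-5p had reads but did not pass, and rno-miR-301b-5p had none. Summed, they ran from 1.46 to 7.48 normalized RPM per library.

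**Figure D1:**
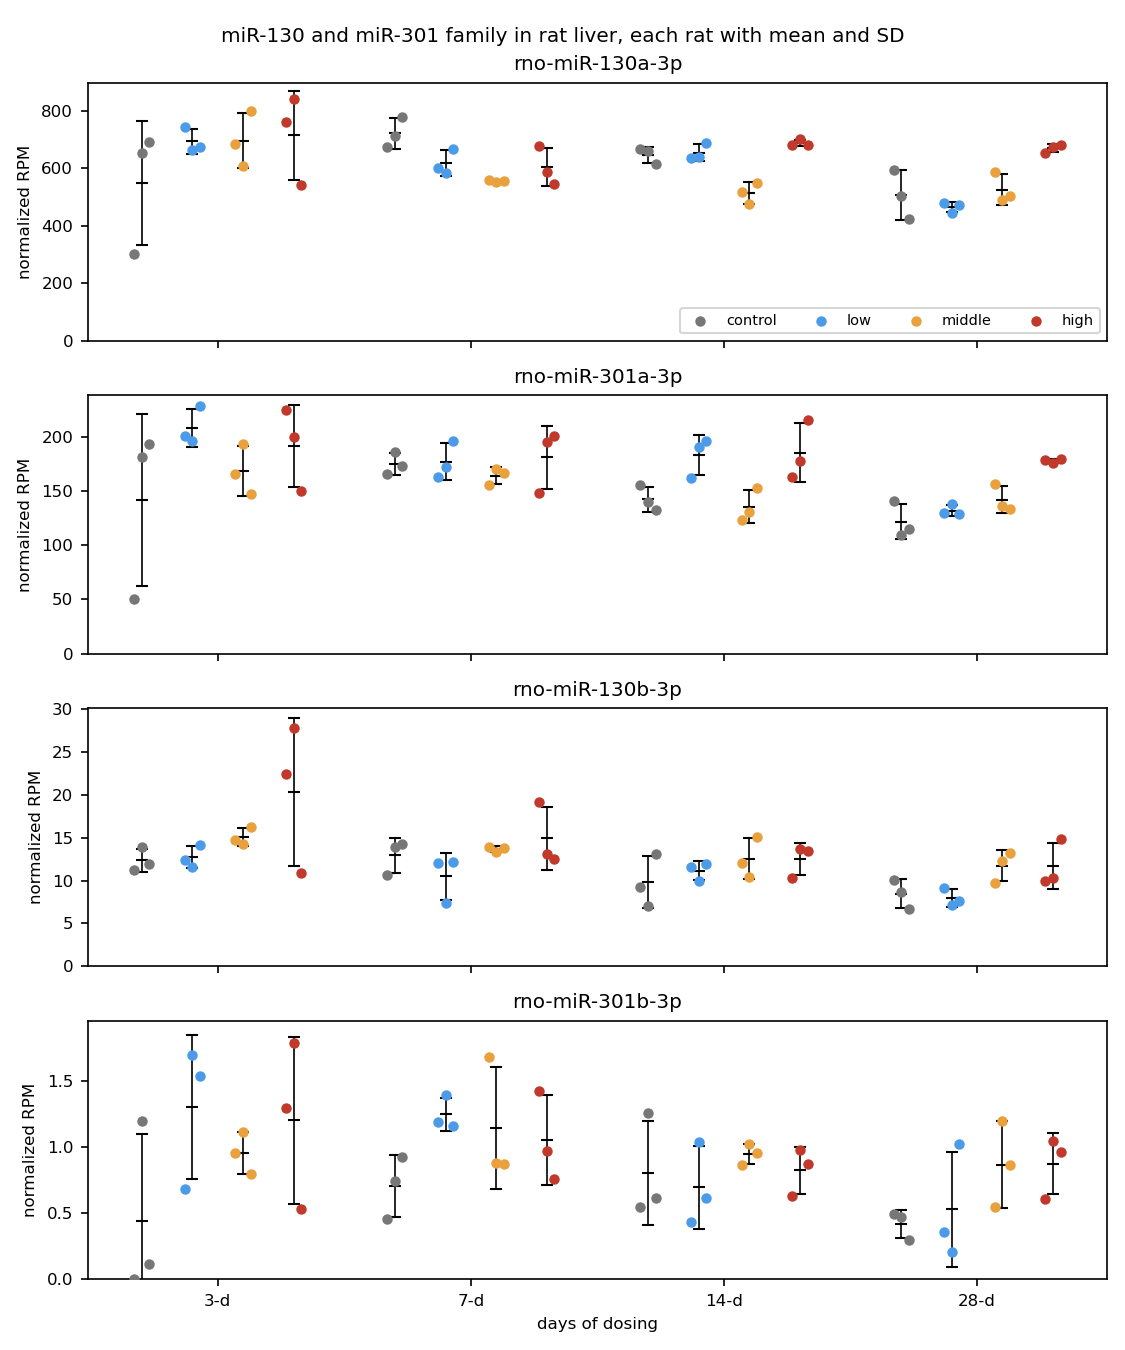
Level of each family member in every rat, in upper quartile normalized RPM (y axis from 0), by days of dosing, with vehicle controls in grey, low dose in blue, middle dose in orange and high dose in red. Bars show the mean and SD of 3 rats. The first control of 3-d lies at 302 for rno-miR-130a-3p and 50.7 for rno-miR-301a-3p, below every other library, and rno-miR-301b-3p reaches at most 1.78.

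Levels and groups are compared from here on in upper quartile normalized RPM, which scales each library so that the upper quartile of its counts agrees between libraries. Over the 16 groups the mean of rno-miR-130a-3p ran from 465 ± 16.9 in low dose at 28-d to 721 ± 54.1 in controls at 7-d, a ratio of 1.55. rno-miR-301a-3p ran from 122 ± 16.5 in controls at 28-d to 208 ± 17.5 in low dose at 3-d, a ratio of 1.71. rno-miR-130b-3p ran from 8.01 ± 1.06 in low dose at 28-d to 20.4 ± 8.63 in high dose at 3-d, a ratio of 2.55. rno-miR-301b-3p ran from 0.420 in controls at 28-d to 1.31 in low dose at 3-d. When the groups were put in order of their means, the ranges of neighbouring groups overlapped in 15 of 15 pairs for rno-miR-130a-3p, rno-miR-130b-3p and rno-miR-301b-3p, and in 14 of 15 for rno-miR-301a-3p.

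The first question was whether TAA changed the family at any dose and time. Treated rats were set against the vehicle rats of the same day, and a miRNA was counted as differentially expressed (a DEM) when its fold exceeded 1.5 with p under 0.05 before adjustment. None of the 36 pairs of a tested member and a condition was a DEM, whereas over all tested miRNAs 18.1% of 3612 pairs were (12.1% higher and 5.98% lower). 70 of the 301 tested miRNAs, the 3 members among them, were DEMs in no condition. DESeq2's Wald test and edgeR's exact test also gave 0 DEMs, as did edgeR's quasi-likelihood test without control 3-d replicate 1, with 18.4% of all pairs called. Some other choices did give DEMs, all higher. These were library size alone, at least 5 RPM in every library, all controls pooled and one fit of all 48 libraries. Leaving out each library in turn gave 0 to 2. The unadjusted p-value was below 0.05 in 6 of the 36 pairs (28.8% over all tested miRNAs), and the 3 treated and 3 control rats did not overlap in 10 of 36 (35.5%). With Benjamini-Hochberg adjustment over the 301 miRNAs of a condition, 1 of 36 pairs passed 0.05 whatever its fold (15.3%). The 95% interval of the fold change lay wholly within 1.5-fold in 11 of the 36 pairs, and in the other 25 it reached a fold of 1.5 or more.

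**Figure D2:**
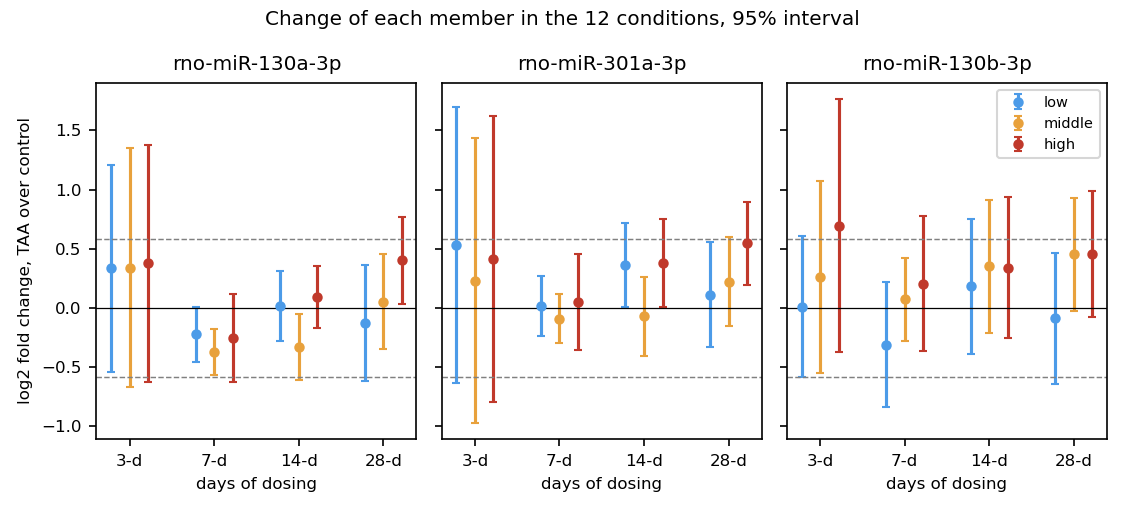
Log2 fold change of the 3 tested members in the 12 conditions against the controls of the same time point, with 95% intervals, by days of dosing and dose. Dashed lines mark a fold change of 1.5 in either direction. The intervals at 3-d are the widest, and no point with an unadjusted p-value below 0.05 lies beyond the dashed lines.

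rno-miR-130a-3p fell in the middle dose at 7-d. The treated rats had 551, 556 and 559 normalized RPM and the controls 672, 711 and 779. The groups did not overlap, and the middle-dose rats were closer to each other than the controls were. The log2 fold change was -0.38 (SE 0.09, adjusted p = 0.0125 in edgeR's quasi-likelihood test), a fold of 1.30, and 3 of 3 treated rats were lower. In this condition 27.6% of the tested miRNAs passed the same adjusted threshold, and the median log2 fold change of all tested miRNAs was -0.02. In the low dose at 7-d rno-miR-130a-3p was at 583, 600 and 667, also below every control, with a log2 fold change of -0.22 (SE 0.10, adjusted p = 0.110). In the high dose it was at 546, 588 and 678 and overlapped the controls by 1 rat. The 3 comparisons at 7-d share their control rats. Against all 12 controls pooled, the middle-dose change of rno-miR-130a-3p at 7-d was -0.13 (unadjusted p = 0.576), and with only miRNAs of at least 5 RPM in every library it was -0.20 (unadjusted p = 0.0437).

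At 14-d the same miRNA stood apart in the middle dose. Its levels were 475, 518 and 548 there, against 614, 658 and 666 in the controls, 636, 638 and 688 in the low dose and 680, 682 and 700 in the high dose. In these normalized levels every middle-dose rat was below every other rat of that time point. In plain RPM middle-dose replicate 33, at 586, was above every low-dose rat and above control replicate 15, at 547. The log2 fold change was -0.33 in the middle dose (SE 0.13, unadjusted p = 0.0253, adjusted p = 0.0894) and 0.09 in the high dose (SE 0.11, adjusted p = 0.742), where the rats were all above the controls. With library size alone the middle-dose value was -0.17 (unadjusted p = 0.222) and the high-dose value 0.30 (unadjusted p = 0.0398), and with TMM the high-dose value was 0.17. At 28-d the controls spread from 423 to 594, and the high-dose rats, at 653, 675 and 681, were all above them, with a log2 fold change of 0.40 (SE 0.17, unadjusted p = 0.0364, adjusted p = 0.148). Against all 12 controls pooled it was 0.14 (unadjusted p = 0.517).

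rno-miR-301a-3p had no condition in which every treated rat was below the controls. At 14-d its levels were 132, 140 and 155 in the controls, 162, 191 and 196 in the low dose, 123, 130 and 153 in the middle dose and 163, 178 and 215 in the high dose. The low-dose and high-dose rats lay above the controls, with log2 fold changes of 0.36 (SE 0.16, adjusted p = 0.0998) and 0.38 (SE 0.16, adjusted p = 0.235). The middle-dose rats overlapped them. The low-dose value was 0.20 with TMM, 0.24 with DESeq2's size factors and 0.13 without a filter, none with an unadjusted p-value below 0.05. At 28-d the controls were at 109, 115 and 141 and the high-dose rats at 176, 178 and 180, with a log2 fold change of 0.55 (SE 0.16, unadjusted p = 0.00629, adjusted p = 0.0774). This fold of 1.46 was the largest of the member with an unadjusted p-value below 0.05, and it was just under the threshold of a DEM. Without control 28-d replicate 16, the highest of the 3 controls, it was 0.66 (unadjusted p = 0.00185) and a DEM, and against all 12 controls pooled it was 0.28 (unadjusted p = 0.289).

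At 3-d the largest fold of rno-miR-301a-3p was in the low dose, at 0.53 on the log2 scale (SE 0.49), where 196, 200 and 228 stood against controls of 50.7, 181 and 193. The value of 50.7 is that of control 3-d replicate 1. Without that library the log2 fold change was 0.15 (SE 0.12, adjusted p = 0.391).

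rno-miR-130b-3p had its highest and most uneven level in the high dose at 3-d. The 3 rats, replicates 22, 23 and 24, were at 22.4, 27.8 and 10.9 normalized RPM from 242, 327 and 124 reads. The controls were at 11.3, 11.99 and 13.9. Replicates 22 and 23 were above the controls and replicate 24 was below them. The log2 fold change was 0.70 (SE 0.47, adjusted p = 0.500), the largest of the 36 in size, and was not significant against that spread. Without control 3-d replicate 1 it was 0.66 (SE 0.44). It was 0.41 (unadjusted p = 0.472) without replicate 23, and without replicate 24 it was 1.00 (unadjusted p = 0.0378) and a DEM. It was also a DEM in one fit of all 48 libraries (0.68, unadjusted p = 0.0162) and against all 12 controls pooled (0.90, unadjusted p = 0.00300), and it was 0.45 with TMM. In replicate 24 the hepatocyte miRNAs summed to 349220 normalized RPM against 291360 and 254830 in replicates 22 and 23, and the red blood cell miRNAs to 5979.7 against 2811.1 and 3144.2, and their part in the difference between these rats was not tested. In the middle dose at 3-d rno-miR-130b-3p was at 14.3, 14.8 and 16.2, above the controls, with a log2 fold change of 0.26 (SE 0.35), or 0.22 (SE 0.32) without control 3-d replicate 1.

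At 28-d rno-miR-130b-3p was at 6.70, 8.65 and 10.1 in the controls and 7.16, 7.67 and 9.19 in the low dose. It was at 9.70, 12.3 and 13.2 in the middle dose and 9.97, 10.4 and 14.8 in the high dose. Both higher doses overlapped the controls, each with a log2 fold change of 0.45 (SE 0.22 and 0.24, adjusted p = 0.126 and 0.255). Without control 28-d replicate 16 the middle dose was a DEM for this member.

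rno-miR-301b-3p could be fitted only without the filter on low counts. It was then no DEM in any of the 12 conditions, in fits that called 12.2% of the pairs of all 664 miRNAs, with log2 fold changes from -0.42 to 1.06 and standard errors from 0.44 to 0.92. The highest, in the low dose at 3-d, was 0.98 without control 3-d replicate 1. At the counts read, these standard errors were too wide to detect a 1.5-fold change reliably in a single condition. Averaged over the 12 conditions, the log2 fold change was 0.47 (SE 0.24, adjusted p = 0.229 in edgeR's quasi-likelihood test). In the low, middle and high dose, 8, 12 and 11 of 12 rats were above the mean of their controls. Without control 3-d replicate 1 the high dose had 10 of 12. Rats of a time point share a control mean, so these 12 are not independent. Each library held only 0 to 21 reads of this member.

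To ask whether a dose moved a member over all time points, the 4 log2 fold changes of a dose were averaged in a fit of all 48 libraries. In the high dose rno-miR-130b-3p rose by 0.42 on the log2 scale (SE 0.13, 95% interval 0.16 to 0.68, adjusted p = 0.0136), with 10 of 12 rats above the mean of their controls. rno-miR-301a-3p rose by 0.34 (SE 0.11, 0.11 to 0.56, adjusted p = 0.0229), with 11 of 12 rats above. rno-miR-130a-3p averaged 0.15 (SE 0.09, -0.03 to 0.33, adjusted p = 0.192), with 8 of 12 rats above. Rats of a time point share a control mean, so the 12 are not independent. In this comparison 28.2% of the tested miRNAs passed the adjusted threshold, and the median over all of them was 0.09. The 2 calls among 3 members stand beside that share.

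Without control 3-d replicate 1 the high-dose averages were 0.41 for rno-miR-130b-3p (SE 0.13, adjusted p = 0.0164), 0.25 for rno-miR-301a-3p (SE 0.07, adjusted p = 0.00987) and 0.08 for rno-miR-130a-3p (SE 0.07, adjusted p = 0.348), and 30.6% of all tested miRNAs were called. Both calls were lost when miRNAs with few reads were kept in the fit, with averages of 0.27 (adjusted p = 0.251) and 0.18 (adjusted p = 0.344). That of rno-miR-301a-3p was also lost without high 3-d replicate 22, with an average of 0.30 and an adjusted p = 0.0518.

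In the middle dose rno-miR-130b-3p averaged 0.28 (SE 0.13, adjusted p = 0.0844). There 12 of 12 rats were above their control means, which rats of a time point share. In the low dose the member averaged -0.05 (SE 0.13) with 6 of 12 rats above. rno-miR-301a-3p averaged 0.25 in the low dose (SE 0.11, adjusted p = 0.0638, 10 of 12 rats above) and 0.06 in the middle dose (SE 0.11). rno-miR-130a-3p averaged 0.00 in the low dose and -0.08 in the middle dose (SE 0.09 each). None of these passed, in comparisons where 49.8% (low dose) and 36.5% (middle dose) of all miRNAs did. The middle-dose average of rno-miR-130b-3p passed in 4 of 54 alternatives: with library size alone (0.43, adjusted p = 0.0120), with at least 5 RPM in every library (0.37, adjusted p = 0.0146), without high 3-d replicate 24 (0.28, adjusted p = 0.0430) and without control 14-d replicate 15 (0.35, adjusted p = 0.0331). The low-dose average of rno-miR-301a-3p passed in 3 of 54, without control 3-d replicate 2 (0.29), control 3-d replicate 3 (0.31) or control 28-d replicate 16 (0.27). Over all 12 conditions rno-miR-130b-3p averaged 0.22 (SE 0.11, adjusted p = 0.101) and rno-miR-301a-3p 0.21 (SE 0.09, adjusted p = 0.0582), with 41.2% of all miRNAs called. rno-miR-130a-3p averaged 0.02 (SE 0.07), with a direction that turned negative under TMM normalization, DESeq2's size factors, no filter or without control 3-d replicate 1 or control 28-d replicate 18.

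**Figure D3:**
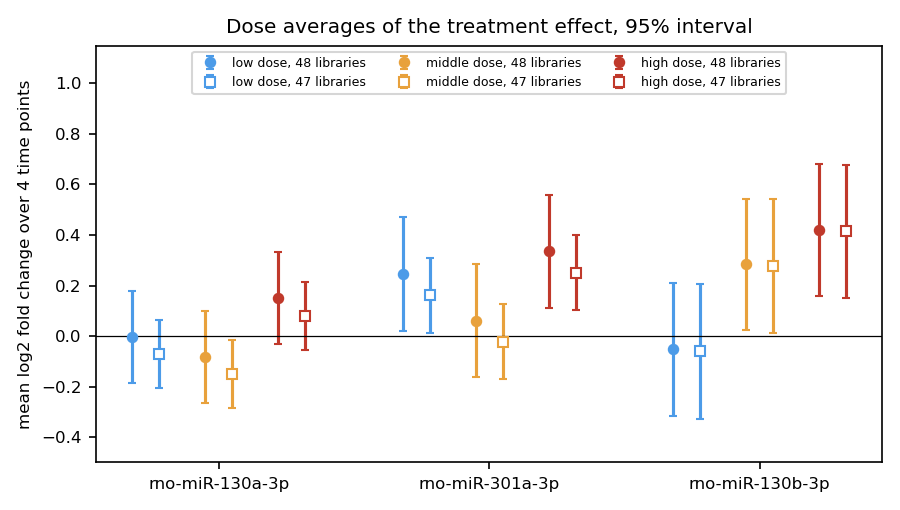
Log2 fold change averaged over the 4 time points for each dose and tested member, with 95% intervals. Filled circles use all 48 libraries and open squares leave out control 3-d replicate 1. The high-dose averages of rno-miR-301a-3p and rno-miR-130b-3p lie above 0 in both fits.

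The next question was whether the effect of TAA differed between doses or between time points. With all 48 libraries 0 of 63 differences (21 contrasts of 3 members) passed after adjustment in edgeR's test, against 7.02% over all tested miRNAs, and 9 of 63 had an unadjusted p-value below 0.05 (19.2%). Without control 3-d replicate 1 the common dispersion of the fit fell from 0.0735 to 0.0555, and 7 of the 63 passed. A difference between doses at one time point does not use the controls, and the removed library changed these estimates by less than 0.01. It changed their standard errors, for rno-miR-130a-3p from 0.18 to 0.13 and for rno-miR-301a-3p from 0.22 to 0.14.

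rno-miR-130a-3p and rno-miR-301a-3p both passed in 3 contrasts, and rno-miR-130a-3p passed in 1 more. In the middle dose at 14-d both were lower than in the low dose, by -0.35 (SE 0.13, adjusted p = 0.0345) and -0.43 (SE 0.14, adjusted p = 0.0170), where 32.6% of all miRNAs were called. The high dose exceeded the middle dose by 0.42 (SE 0.13, adjusted p = 0.0342) and 0.45 (SE 0.14, adjusted p = 0.0347), with 9.63% called. With 48 libraries the adjusted p-values of these 4 differences were 0.159, 0.153, 0.184 and 0.267. In the normalized levels given above, the middle-dose rats at 14-d did not overlap the low-dose or the high-dose rats for either member. In plain RPM they still lay below the high-dose rats but overlapped the low-dose rats. The plain values of rno-miR-130a-3p were 507, 515 and 586 in the middle dose and 516, 562 and 569 in the low dose. Those of rno-miR-301a-3p were 121, 141 and 163 against 131, 160 and 170. The share of all miRNAs without overlap between these doses was not counted.

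At 28-d the high dose exceeded the low dose by 0.53 for rno-miR-130a-3p (SE 0.13, adjusted p = 0.0101) and 0.43 for rno-miR-301a-3p (SE 0.14, adjusted p = 0.0462), with 8.97% called. In levels, rno-miR-130a-3p was at 446, 472 and 477 in the low dose and from 653 to 681 in the high dose. rno-miR-301a-3p was at 128, 129 and 138 and from 176 to 180. The high dose also exceeded the middle dose for rno-miR-130a-3p, by 0.35 (SE 0.13, adjusted p = 0.0477, 21.3% called). With 48 libraries these 3 adjusted p-values were 0.126, 0.285 and 0.213. rno-miR-130b-3p had no difference that passed in either fit. Its largest, high minus low dose at 3-d, was 0.68 (SE 0.25) with an adjusted p = 0.0726 in 48 libraries and 0.0535 in 47.

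**Figure D4:**
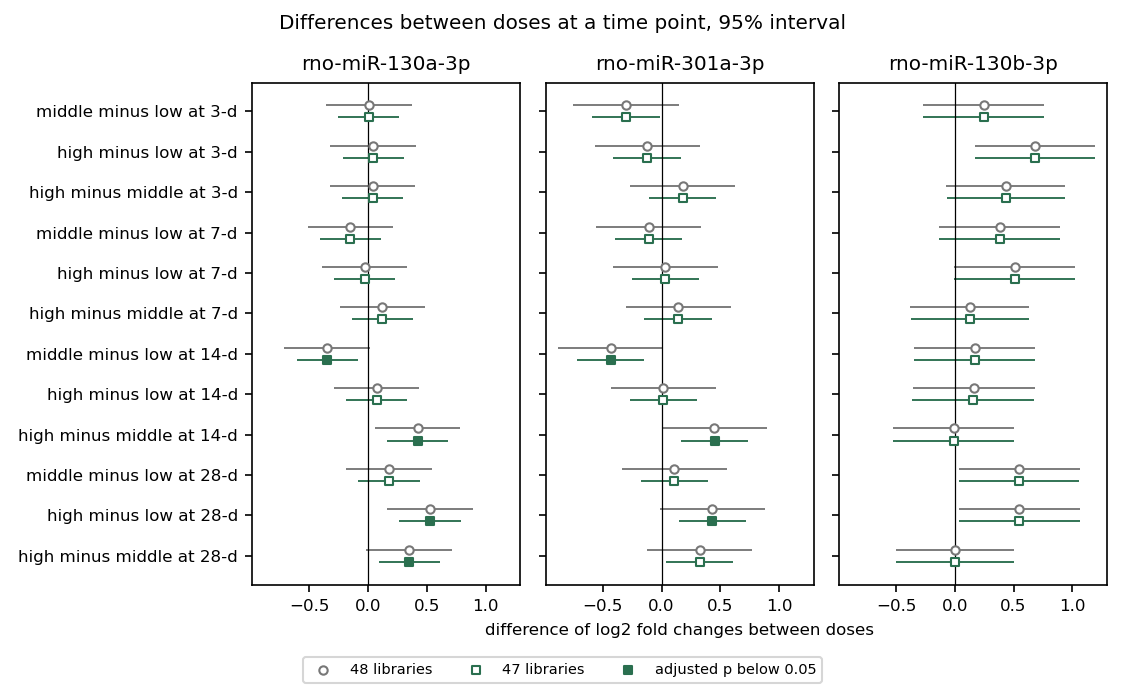
Differences of log2 fold changes between doses at a time point for the 3 tested members, with 95% intervals, in the fit of 48 libraries (grey circles) and without control 3-d replicate 1 (green squares). Filled symbols have an adjusted p-value below 0.05. The estimates of the fits lie on each other, and the intervals of rno-miR-130a-3p and rno-miR-301a-3p are shorter in the fit of 47 libraries.

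In the vehicle controls all 3 tested members were lower at 28-d than at 7-d. rno-miR-130a-3p went from 721 ± 54.1 to 507 ± 85.9, rno-miR-301a-3p from 175 ± 10.1 to 122 ± 16.5 and rno-miR-130b-3p from 12.95 ± 2.03 to 8.48 ± 1.70. The ranges at 7-d and 28-d did not overlap for any of them, and the share over all tested miRNAs was not counted. In the 12 conditions, also 3 rats against 3, 35.5% of all pairs did not overlap. With 48 libraries the log2 differences were -0.51 (SE 0.18, adjusted p = 0.0943), -0.52 (SE 0.22, adjusted p = 0.151) and -0.60 (SE 0.26, adjusted p = 0.151). Of 18 such differences between control groups, 0 passed after adjustment in edgeR's test (13% over all miRNAs) and 5 had an unadjusted p-value below 0.05 (24.7%).

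Without control 3-d replicate 1, 4 of the 18 passed. From 7-d to 28-d rno-miR-130a-3p fell by 0.51 (SE 0.13, adjusted p = 0.00651) and rno-miR-301a-3p fell by 0.52 (SE 0.14, adjusted p = 0.0110), with 12.6% of all miRNAs called. From 3-d to 28-d they fell by 0.40 (SE 0.14, adjusted p = 0.0441) and 0.62 (SE 0.16, adjusted p = 0.00588), with 18.6% called. The 3-d controls were then 2 rats. rno-miR-130b-3p had -0.60 in both (SE 0.25 and 0.28, adjusted p = 0.103 and 0.135). The comparisons with TAA at 28-d use these controls. The age of the rats and the days of vehicle dosing cannot be told apart here.

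Over the 16 group means of log2 (normalized RPM + 1), rno-miR-130a-3p and rno-miR-301a-3p were each other's most alike miRNA among the 300 compared, with Pearson's r = 0.84 (Spearman's rho = 0.79). They come from different chromosomes, and both include the low control 3-d replicate 1. Next to rno-miR-130a-3p came rno-miR-511-3p (r = 0.78), from the locus of a macrophage mannose receptor, and rno-miR-136-3p (r = 0.75), from the imprinted Dlk1-Dio3 locus. Next to rno-miR-301a-3p came rno-miR-148b-5p (r = 0.83) and rno-miR-152-5p (r = 0.81), opposite strands of the miR-148/152 family.

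rno-miR-130b-3p was less like its relatives, with r = 0.53 to rno-miR-130a-3p and 0.55 to rno-miR-301a-3p. The 3 most alike were rno-miR-18a-5p (r = 0.85) and rno-miR-17-5p (r = 0.83), both of the proliferation-linked cluster from miR-17 to miR-92a, and rno-miR-425-5p (r = 0.81). These values describe 16 groups that share libraries and normalization and carry no test.

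When control 3-d replicate 1 was left out, 3 of these 9 most alike miRNAs remained among the 3 of their member. The r of rno-miR-130a-3p with rno-miR-301a-3p was then 0.83, at rank 3 for rno-miR-130a-3p and rank 5 for rno-miR-301a-3p. The most alike of rno-miR-130a-3p was rno-miR-351-5p (r = 0.88), and that of rno-miR-301a-3p was rno-miR-136-3p (r = 0.88). rno-miR-148b-5p was at r = 0.75. rno-miR-130b-3p had r = 0.57 with rno-miR-130a-3p and 0.64 with rno-miR-301a-3p. Its most alike were rno-miR-106b-5p (r = 0.88), rno-miR-17-5p (r = 0.87) and rno-miR-18a-5p (r = 0.86).

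**Figure D5:**
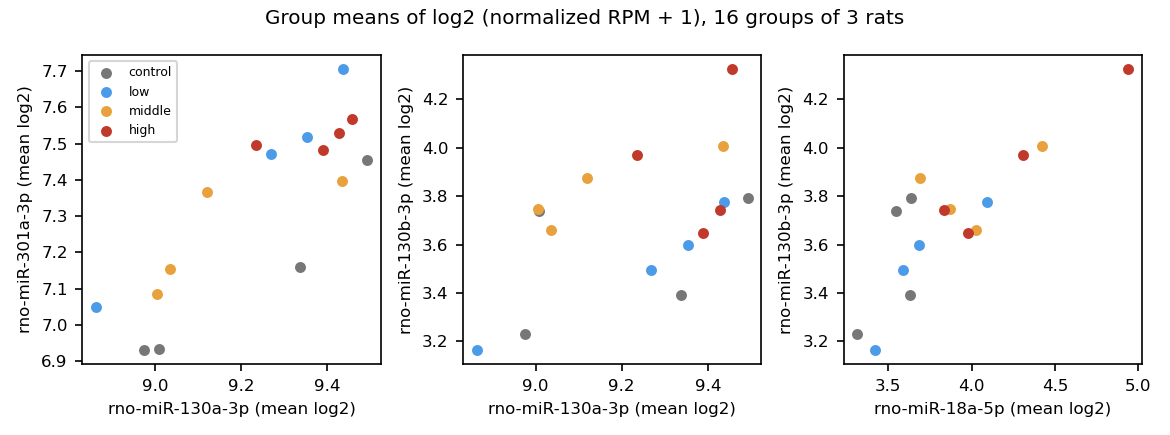
Group means of log2 (normalized RPM + 1) over the 16 groups of 3 rats, coloured by dose. The points of rno-miR-301a-3p against rno-miR-130a-3p (left, r = 0.84) and of rno-miR-130b-3p against rno-miR-18a-5p (right, r = 0.85) lie closer to a line than those of rno-miR-130b-3p against rno-miR-130a-3p (middle, r = 0.53).

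The balance within the family was also read from ratios within a library, which need no normalization. The ratio of rno-miR-130a-3p to rno-miR-301a-3p had a median of 4.26 in controls (3.57 to 5.94, 12 rats), 3.46 in the low dose, 3.62 in the middle dose and 3.73 in the high dose. Without control 3-d replicate 1 the controls had a median of 4.23 (3.57 to 4.70). The ratio of rno-miR-130a-3p to rno-miR-130b-3p had a median of 57.9 in controls (26.8 to 93.7) and 57.4 in the low dose (47.5 to 79.3). It was 41.99 in the middle dose (36.3 to 60.4) and 47.7 in the high dose (30.2 to 65.8). The lowest control value was that of control 3-d replicate 1. Without that library the controls had a median of 58.3 (47.1 to 93.7). Every range overlapped that of the controls with or without it, and the differences between doses were not tested.

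Other miRNAs set beside the family were grouped by lists, and their DEMs are given over 12 conditions. The lists overlap, also with those of the cell markers below, and the calls of a shared miRNA count in each list. Among the shared miRNAs are rno-miR-145-5p and rno-miR-19a-3p. Over all tested miRNAs 12.1% of pairs were higher and 5.98% lower. 5 miRNAs whose seed overlaps the family's core (miR-19a, miR-19b, miR-148a, miR-148b and miR-152) had 4 pairs higher and 4 lower of 60 (6.67% each). Their largest changes were in rno-miR-19a-3p, from -1.53 to 1.04 on the log2 scale, and rno-miR-152-3p, from 0.00 to 0.89. Of 14 miRNAs linked to fibrosis and stellate cells, 13 pairs were higher (7.74%) and 15 lower (8.93%) of 168. The list was led by rno-miR-145-5p and rno-miR-29a-3p, each lower in 4 conditions. Of 9 proliferation-linked miRNAs, 7 pairs were higher (6.48%) and 6 lower (5.56%) of 108, led by rno-miR-19a-3p and rno-miR-92a-3p. Their median log2 fold change was 0.26 against 0.06 over all tested miRNAs.

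Markers of other liver cells were read in the same way, beside the same shares over all tested miRNAs (12.1% higher and 5.98% lower). The endothelial strands of miR-126a had 0 DEMs of 24 pairs in edgeR's test. Leukocyte miRNAs had 4 higher (5.56%) and 6 lower (8.33%) of 72, with rno-miR-155-5p higher in 3 conditions and rno-miR-150-5p lower in 4. Red blood cell miRNAs had 1 higher (1.67%) and 21 lower (35%) of 60, led by rno-miR-486 and rno-miR-144-3p, each lower in 5. Smooth muscle or stellate cell miRNAs had 6 higher (8.33%) and 8 lower (11.1%) of 72. They were led by rno-miR-145-5p, lower in 4 conditions, and rno-miR-214-3p, higher in 3 and lower in 1. Epithelial or bile duct miRNAs had 5 higher (8.33%) and 8 lower (13.3%) of 60, led by rno-miR-429 and rno-miR-200b-3p. Hepatocyte miRNAs had 2 higher (3.33%) and 6 lower (10%) of 60. They were led by rno-miR-122-3p, lower in 5 conditions, and rno-miR-122-5p, higher in 2 and lower in 1. With control 3-d replicate 1 left out, the epithelial or bile duct miRNAs had 12 lower, the red blood cell miRNAs 19 lower, with rno-miR-486 lower in 3 conditions, and the miRNAs with an overlapping seed 6 lower. Each other count moved by at most 2. The part of these cells in the family's levels was not tested.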

How the data were processed

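Liver miRNA-seq of 48 rats (16 groups, 3 rats each) was analysed. The deposited values are raw counts per mature miRNA and precursor: after adaptor removal the authors discarded reads outside 18 to 25 bases and quantified the rest against miRBase release 21 with miRDeep2, and the counts are neither normalized nor pooled. The submitters' processing notes name rn5 and FastQC. Each member has 1 precursor. Groups and running numbers came from the sample titles. Depth was 293331 to 14906217 counts.

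Conditions were compared in 12 fits of 6 libraries with the quasi-likelihood F-test of edgeR 4.0.16 (R 4.3.3) after upper quartile scaling, on the 301 miRNAs that reached 5 RPM in 3 or more libraries. Differences, averages and control contrasts came from a fit of 48 libraries, and adjusted p-values are Benjamini-Hochberg over the tested miRNAs of a contrast. With 3 rats a group no exact test of a single miRNA was used. Named miRNAs are the members, the 3 most alike by Pearson's r and the 2 of largest mean change in each list. Members and lists were chosen with earlier results of these data known. Scripts were tested on simulated data. Alternatives covered normalization, filter, test (DESeq2 1.42.0), controls and each library left out.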

Additional observations from a re-analysis of the deposited data

Results flagged for a closer look

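rno-miR-130a-3p at 14-d had log2 fold changes of opposite sign in the middle dose (-0.331) and the high dose (0.0896). In normalized levels all 3 rats of each dose lay outside the range of the shared controls. They were below it in the middle dose and above it in the high dose. In plain RPM middle-dose replicate 33, at 586, lay within the control range of 547 to 641. The high-dose value was 0.30 (unadjusted p = 0.0398) with library size alone. The difference between the doses was 0.42 (SE 0.18), with an unadjusted p = 0.0250 and an adjusted p = 0.184 in edgeR's fit of 48 libraries, and an adjusted p = 0.0342 without control 3-d replicate 1. Groups of 3 rats are too small for the test of single outlying rats, so none was made.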

How the results depend on the processing

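No paired analysis was possible because the groups share no replicate numbers. The count of DEMs that were higher was 0 and became 3 with library size alone (rno-miR-301a-3p in the high dose at 14-d and 28-d, and rno-miR-130b-3p in the middle dose at 28-d), 1 with at least 5 RPM in every library, 1 with all 12 controls pooled, 1 in one fit of 48 libraries and 0 to 2 when each library was left out (1 without high 3-d replicate 24, and 2 without control 14-d replicate 15 or control 28-d replicate 16). The count that were lower was 0 under every alternative run. Differences of effects that passed went from 0 to 1 with DESeq2's size factors, 1 with library size alone, 2 with at least 5 RPM in every library and 0 to 7 with a library left out (7 without control 3-d replicate 1, 2 without control 3-d replicate 2 or 3, 1 without high 3-d replicate 24). Control contrasts that passed went from 0 to 1 with TMM, 1 with DESeq2's size factors, 3 with library size alone and 0 to 4 with a library left out (4 without control 3-d replicate 1, 1 without control 3-d replicate 3 or high 3-d replicate 24). The average over all conditions for rno-miR-130a-3p turned to -0.026 with TMM, -0.049 with DESeq2's size factors and -0.10 without the filter, and ran from -0.047 to 0.070 with a library left out. For rno-miR-301a-3p it was 0.26 (adjusted p = 0.0196) with library size alone and ran from 0.13 to 0.27 with a library left out, passing in 6 of 48. For rno-miR-130b-3p it ran from 0.17 to 0.28 and passed in 2 of 48. The high-dose average of rno-miR-130a-3p was -0.0026 without the filter, and the low-dose change of rno-miR-130a-3p at 7-d was 0.026 with pooled controls. The high-dose averages passed in 53 of 54 alternatives for rno-miR-130b-3p and 52 of 54 for rno-miR-301a-3p. Of the 54, 48 left out 1 library each, and 48 and 47 of these passed. Low-dose and middle-dose libraries do not enter this average, so leaving out 1 of them tests it little. Neither average passed without the filter. Of the 9 most alike miRNAs, 3 remained without control 3-d replicate 1, an alternative chosen after seeing the data, as was leaving that library out of the list counts. The cause of these moves was not tested. The order of the members held in 48 of 48 libraries with plain RPM. The 3 rats a group limit precision, and in control 3-d replicate 1 depth does too.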
